A study of Homo sapiens with 6 samples.

Results

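The p53 target genes are genes whose transcription the tumour suppressor p53 is known to raise, and 32 of them, listed by symbol, were read from a table of 27914 genes. Total RNA was sequenced from MCF10A, a human breast epithelial cell line that grows indefinitely in culture but forms no tumours. The samples were 3 libraries of cells labelled α-/-;βin and 3 of cells labelled SCRin control with a wild-type genotype, and all 6 samples had been given doxycycline for 3 days. The labels expand neither SCR, in, α nor β. The series title names PI5P4K, the lipid kinases encoded by PIP4K2A (α), PIP4K2B (β) and PIP4K2C, and α and β were read in that sense. Whether the α-/-;βin line is 1 clone, and whether replicates came from separate cultures, is not given, so the p-values reflect no more than how these libraries vary, which may be technical.

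p53 is kept scarce in unstressed cells by the ubiquitin ligase MDM2, itself a p53 target, and accumulates after DNA damage or other stress. It then binds paired copies of a short DNA element near its targets. The products of those genes stop the cell cycle, sensitise cells to apoptosis, adjust metabolism and redox balance, repair DNA, or switch p53 off again.

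Expression was given as TPM, a transcript abundance scaled for gene length and to the same total in each library, so the number of reads is unknown. PIP4K2A measured 4.09, 4.16 and 4.35 TPM in α-/-;βin cells, against 19.8, 20.2 and 21.7 TPM in controls. PIP4K2B measured 8.20, 8.69 and 11.6 TPM in α-/-;βin cells, against 20.8, 23.1 and 21.4 TPM in controls, so neither gene's groups overlapped (exact two-sided permutation p = 0.1 for each, the smallest that 3 against 3 can give). Both passed with limma (adjusted p = 0.000847 for PIP4K2A and 0.00985 for PIP4K2B), though PIP4K2B did not without control replicate 3 (adjusted p = 0.0602) or without replicate 2 of both groups (adjusted p = 0.116). PIP4K2C, which was not targeted by label, overlapped between groups at 39.9, 28.6 and 33.4 TPM in α-/-;βin cells and 45.9, 37.4 and 45.9 TPM in controls. All 12 basal epithelial markers were expressed, with a summed level of 5456 to 8958 TPM in α-/-;βin libraries and 5483 to 9958 TPM in control libraries. Of 10 luminal markers 5 were expressed, with summed levels of 572 to 699 TPM in α-/-;βin libraries and 649 to 745 TPM in controls, and the hormone receptor genes ESR1 and PGR stayed under 0.2 TPM. Fibroblast markers summed to 2.73 to 6.13 TPM in α-/-;βin libraries and 1.96 to 6.32 TPM in controls, with COL3A1 and THY1 at 0 in all 6 libraries. Leukocyte markers other than CD68 and CSF1R, and all endothelial markers, averaged under 1 TPM. Spearman correlations across genes lay between 0.944 and 0.970 for all pairs of libraries, and none stood apart.

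Most of the 32 p53 target genes read here were somewhat higher in α-/-;βin cells, and 3 of them passed the test. They had been chosen with earlier results of these data known. All 32 members reached a mean of 1 TPM over the 6 libraries and were tested among 12096 genes with limma on log2(TPM + 1), a scale on which changes of genes at low levels come out too small. CLCA2, BTG2 and FDXR were called higher, 0 were called lower and 29 did not pass (Benjamini-Hochberg adjusted p under 0.05). Over all tested genes, 2.19% were called in either direction and 0.364% were called higher. The median log2 change of the members was 0.28 (quartiles 0.12 and 0.42), and 26 of 32 were above 0, against a median of -0.01 (quartiles -0.16 and 0.11) and 5651 of 12096 above 0 for all genes. Bulk RNA does not tell apart fewer cells that express a gene and less of its RNA per cell. The count above 0 changed with the setting. It was 29 with quantile normalization (median of all genes 0.02), 27 with median-of-ratios scaling and 25 without control replicate 1 (median of all genes -0.06). The count did not always move with the median of all genes. It was 29 without α-/-;βin replicate 1 (median of all genes 0.002) and 26 without α-/-;βin replicate 2 (median of all genes -0.04).

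The groups did not overlap for 10 members, all of them higher in α-/-;βin cells. Among all tested genes 5.64% were higher without overlap and 11.4% lower without overlap, of which the members had 0. Those 10 genes were BTG2, CLCA2 and ZMAT3 of the arrest arm, PMAIP1, PHLDA3 and EDA2R of the apoptosis arm, SESN1, FDXR and SPATA18 of the metabolism arm, and DDB2 of the repair arm. At an unadjusted p under 0.05, 10 members were higher and 0 lower, while 450 of all genes were higher and 988 lower. Part of the lower genes lay in 2 lowered stretches of chromosomes 7 and 3, which hold no member. Of the 11832 genes tested outside them, 5.76% were higher and 9.70% lower without overlap. At the same unadjusted p, 449 of those 11832 genes were higher and 753 lower. The levels of each member by library and their log2 changes with intervals are plotted by arm. The 3 calls rested on which libraries and genes were in the test. Only CLCA2 passed without α-/-;βin replicate 1 or 2, only FDXR without control replicate 2, and 0 passed without α-/-;βin replicate 3 or control replicate 1 or 3. None of the 3 passed when the 2 lowered stretches of chromosomes 7 and 3 were left out of the genes tested and 45 genes were called in all.

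**Figure D1:**
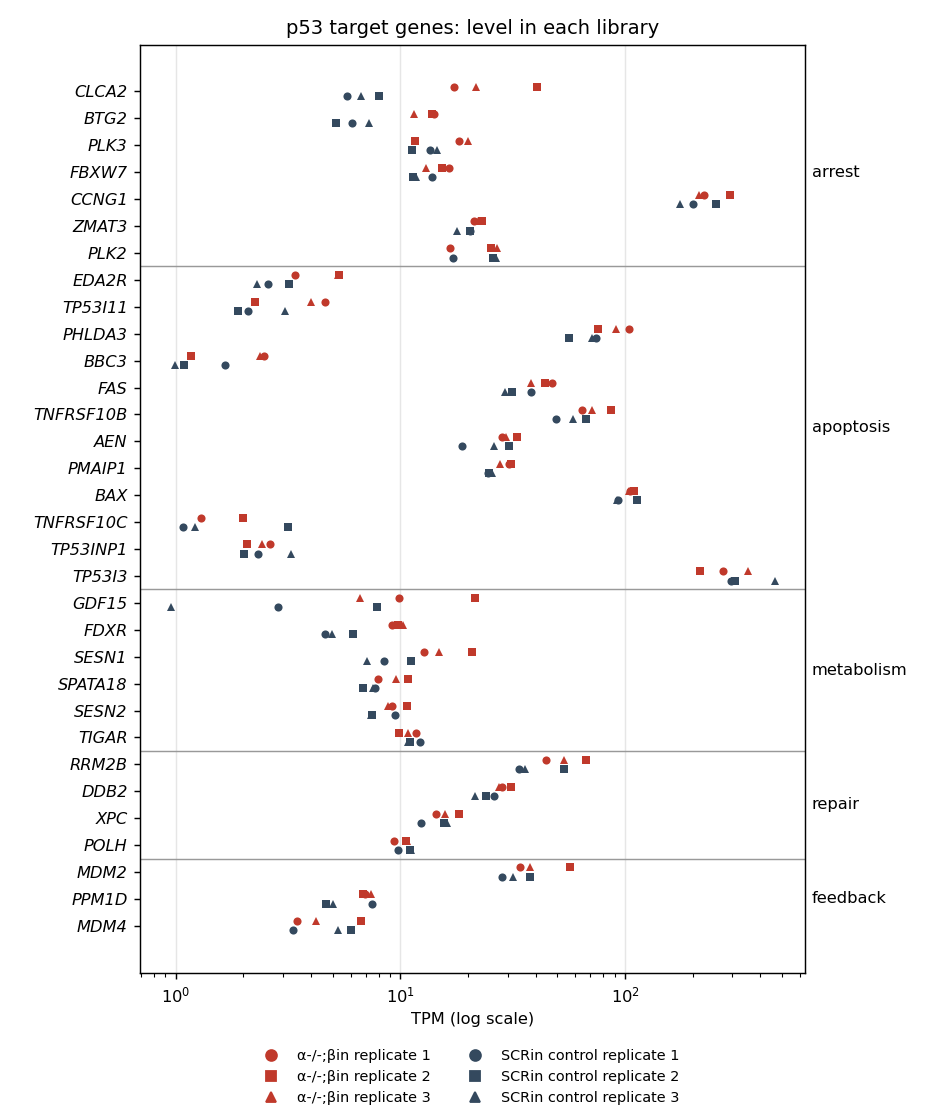
Level of each of the 32 p53 target genes in each library, in TPM on a log axis, ordered by arm and by log2 change. Red symbols are α-/-;βin libraries and dark symbols SCRin control libraries, with 1 symbol shape per replicate number. The red and dark symbols of CLCA2, BTG2 and FDXR stand apart, while those of PLK2, TP53INP1, TIGAR and POLH lie over each other.

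**Figure D2:**
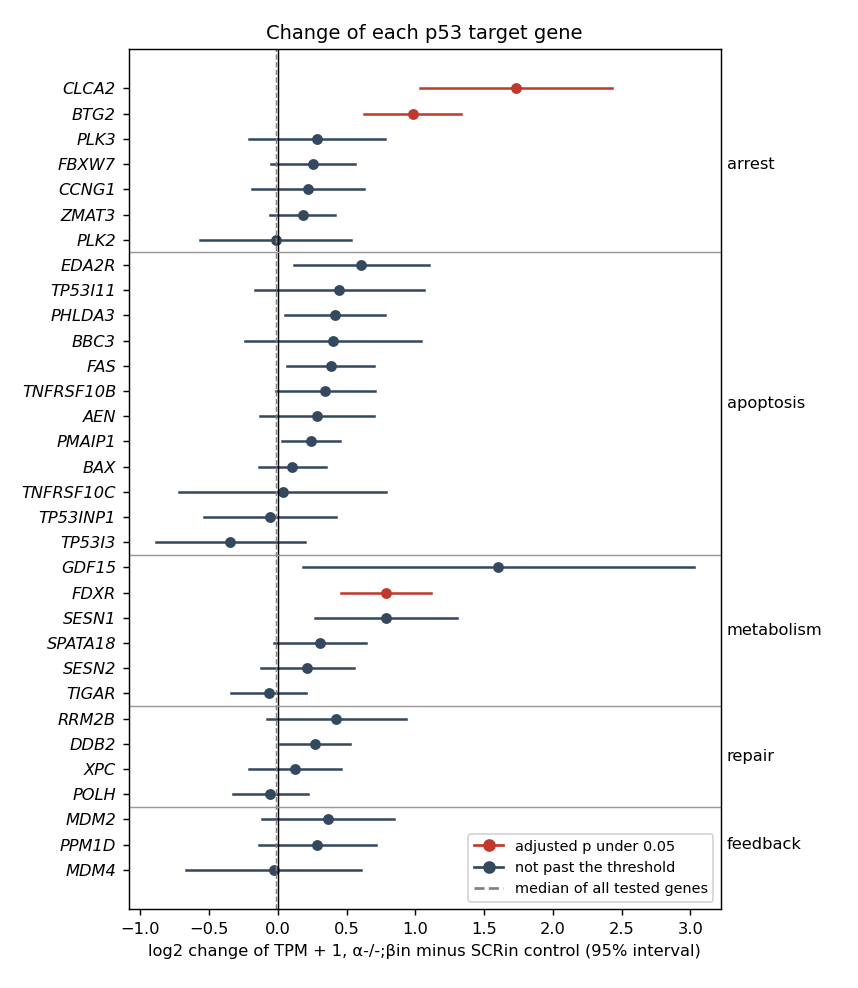
Log2 change of TPM + 1 (α-/-;βin minus SCRin control) of each member with its 95% interval from limma, by arm. Red marks the 3 genes with an adjusted p under 0.05, and the dashed line is the median of all tested genes at -0.01. Most points lie right of 0, with CLCA2 at 1.73 and TP53I3 at -0.35 as the ends.

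The arrest arm held the largest called change. CLCA2, a calcium-activated chloride channel regulator that slows the growth of breast epithelial cells, measured 17.3, 40.4 and 21.7 TPM in α-/-;βin libraries, against 5.80, 8.03 and 6.67 TPM in control libraries. Every α-/-;βin library was above every control, and α-/-;βin replicate 2 was the highest by far. The mean was 26.5 ± 12.2 TPM in α-/-;βin cells and 6.83 ± 1.12 TPM in controls (SD, n = 3 each), with a log2 change of 1.73 (SE 0.30, 95% interval 1.03 to 2.43, limma adjusted p = 0.0334). Over 18 alternative settings CLCA2 passed in 10, with adjusted p between 0.00474 and 0.145.

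BTG2, an antiproliferative factor that binds mRNA deadenylases and also counts among the immediate early genes, measured 14.1, 13.8 and 11.4 TPM in α-/-;βin libraries, against 6.08, 5.19 and 7.23 TPM in control libraries. The groups lay well apart, at 212% of the control mean. Its log2 change was 0.98 (SE 0.15, 95% interval 0.62 to 1.33, limma adjusted p = 0.0215), and it passed in 9 of 18 alternatives (adjusted p 0.0162 to 0.177). The 20 tested genes nearest to BTG2 on chromosome 1 had a median log2 change of -0.16, and all of them lay below BTG2.

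The other arrest genes did not pass. PLK2, a kinase of the polo family, had the lowest log2 change of the arm, with 16.6, 25.4 and 26.8 TPM in α-/-;βin libraries and 17.1, 25.7 and 26.7 TPM in control libraries. At each replicate number these values were nearly the same, and the log2 change was -0.02 (95% interval -0.57 to 0.53, limma adjusted p = 0.991), with a sign that turned under quantile normalization and median-of-ratios scaling. ZMAT3, an RNA-binding zinc finger protein, measured 21.3, 23.2 and 22.2 TPM in α-/-;βin libraries, against 20.4, 20.4 and 17.8 TPM in controls, a small separation with a log2 change of 0.18. CCNG1, cyclin G1, was the most abundant gene of the arm at 244 ± 43.1 TPM in α-/-;βin cells and 209 ± 39.6 TPM in controls (SD, n = 3 each). PLK3, a further polo-family kinase, and FBXW7, which marks cyclin E and MYC for degradation, had log2 changes of 0.29 and 0.26. The groups of CCNG1, PLK3 and FBXW7 overlapped.

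**Figure D3:**
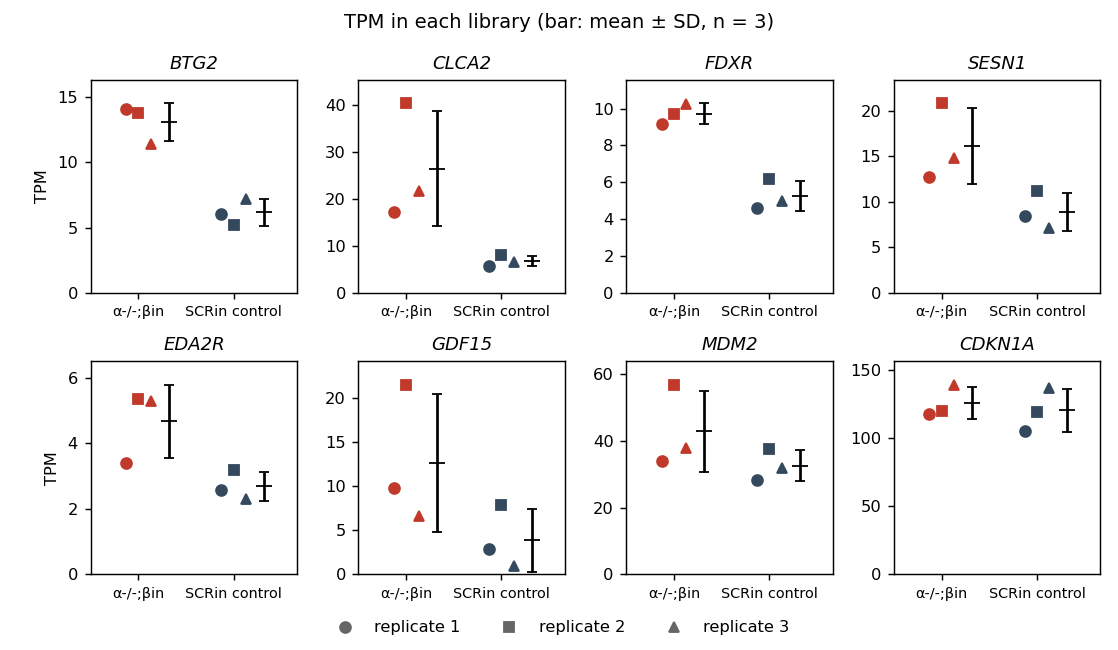
TPM of 8 genes in each library, with α-/-;βin libraries on the left and SCRin control libraries on the right of each panel, symbols by replicate number and black bars for mean ± SD (n = 3). BTG2, CLCA2, FDXR, SESN1 and EDA2R have no overlap between groups, GDF15 and MDM2 overlap, and CDKN1A lies at 117 to 139 TPM in α-/-;βin cells and 105 to 136 TPM in controls.

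None of the 12 apoptosis genes passed with limma after adjustment, and 4 had an unadjusted p under 0.05, all higher (33.3%, against 3.72% of all genes). EDA2R, a death receptor of the TNF family encoded on the X chromosome, had the highest log2 change of the arm. It measured 3.39, 5.35 and 5.29 TPM in α-/-;βin libraries, against 2.58, 3.19 and 2.30 TPM in control libraries. The groups stood apart by a narrow gap, and the log2 change was 0.61 (SE 0.21, 95% interval 0.12 to 1.10, limma adjusted p = 0.297).

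At the other end of the arm, TP53I3, a quinone oxidoreductase linked to oxidative stress, measured 272, 215 and 352 TPM in α-/-;βin libraries, against 297, 308 and 464 TPM in control libraries. It was the most abundant member of all, its groups overlapped, and its log2 change was -0.35 (SE 0.23, 95% interval -0.89 to 0.20, limma adjusted p = 0.658). PHLDA3, which blocks the kinase AKT at the membrane, measured 104, 75.5 and 91.1 TPM in α-/-;βin libraries and 74.3, 56.2 and 71.3 TPM in control libraries. In each group replicate 2 was the lowest of PHLDA3, and the groups were separated by about 1 TPM (log2 change 0.41, 95% interval 0.05 to 0.78, limma adjusted p = 0.349).

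PMAIP1 (NOXA), a BH3-only protein that opposes MCL1, measured 30.4, 31.1 and 27.8 TPM in α-/-;βin libraries, against 24.4, 24.9 and 25.6 TPM in controls. Its groups were tight and apart, with a log2 change of 0.24 (95% interval 0.03 to 0.45, limma adjusted p = 0.343). FAS, the death receptor for FAS ligand, measured 47.5, 44.1 and 38.1 TPM in α-/-;βin libraries and 38.1, 31.4 and 29.2 TPM in controls, where the lowest α-/-;βin value and the highest control value were nearly equal. TNFRSF10B, the TRAIL receptor DR5, measured 64.6, 86.9 and 71.4 TPM in α-/-;βin libraries and 49.1, 66.8 and 58.8 TPM in controls. Its groups overlapped, with a log2 change of 0.35.

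BAX, the pore-forming effector of mitochondrial apoptosis, was close in both groups at 106 ± 2.94 TPM in α-/-;βin cells and 99.3 ± 11.7 TPM in controls (SD, n = 3 each). BBC3 (PUMA), a BH3-only activator of BAX, stood at 2.47, 1.16 and 2.38 TPM in α-/-;βin libraries and 1.65, 1.09 and 0.992 TPM in controls, too low and too spread to separate the groups. AEN, an apoptosis-associated nuclease, and TP53I11, a p53-inducible membrane protein, had log2 changes of 0.28 and 0.45, with overlapping groups. TP53INP1, a nuclear and autophagy-linked cofactor, and TNFRSF10C, a decoy receptor for TRAIL, had log2 changes of -0.06 and 0.04, and TP53INP1 turned to 0.05 with quantile normalization. TNFRSF10C is close in sequence to TNFRSF10D, so its values are uncertain.

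The metabolism arm had the highest median log2 change, 0.55 over 6 genes, and 1 call. FDXR, ferredoxin reductase, which feeds electrons to mitochondrial steroid and iron-sulfur cluster synthesis, measured 9.14, 9.73 and 10.3 TPM in α-/-;βin libraries, against 4.61, 6.16 and 4.98 TPM in control libraries. Replicates of FDXR lay close together and the groups far apart, with a log2 change of 0.78 (SE 0.14, 95% interval 0.46 to 1.11, limma adjusted p = 0.0390). FDXR passed in 9 of 18 alternatives, with adjusted p between 0.0199 and 0.184.

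SESN1, a sestrin that restrains mTORC1 in response to stress, measured 12.7, 20.8 and 14.8 TPM in α-/-;βin libraries, against 8.46, 11.2 and 7.08 TPM in control libraries. The groups did not overlap, and in each replicate 2 was the highest. The log2 change of SESN1 was 0.78 (SE 0.22, 95% interval 0.27 to 1.30), close to that of FDXR, but its spread was wider and it did not pass (limma adjusted p = 0.188). SESN2, its paralog, which ATF4 also induces, measured 9.55 ± 1.00 TPM in α-/-;βin cells and 8.11 ± 1.19 TPM in controls (SD, n = 3 each), with a log2 change of 0.22.

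GDF15, a secreted stress hormone of the TGF-β superfamily that ATF4 also induces, was the most variable member. It measured 9.81, 21.5 and 6.63 TPM in α-/-;βin libraries, against 2.84, 7.85 and 0.948 TPM in control libraries. Replicate 2 was the highest and replicate 3 the lowest in each group, and α-/-;βin replicate 3 lay below control replicate 2. The coefficient of variation was 61.9% in α-/-;βin cells and 91.9% in controls, and the log2 change was 1.60 (SE 0.60, 95% interval 0.18 to 3.03, limma adjusted p = 0.353).

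SPATA18, a protein of mitochondrial quality control, measured 7.92, 10.8 and 9.51 TPM in α-/-;βin libraries and 7.73, 6.81 and 7.55 TPM in controls, apart by a small gap. TIGAR, a phosphatase that lowers glycolytic flux, had the lowest log2 change of the arm, with 11.8, 9.82 and 10.8 TPM in α-/-;βin libraries and 12.2, 11.01 and 10.8 TPM in control libraries. Its groups overlapped, with a log2 change of -0.07 (95% interval -0.34 to 0.20, limma adjusted p = 0.902).

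The 4 repair genes gave 0 calls, with 1 of them, DDB2, at an unadjusted p under 0.05. DDB2, a damage sensor of nucleotide excision repair, measured 28.3, 30.9 and 27.6 TPM in α-/-;βin libraries, against 26.1, 24.1 and 21.4 TPM in control libraries. Every α-/-;βin value was higher, with a log2 change of 0.27 (95% interval 0.02 to 0.52, limma adjusted p = 0.376). RRM2B, the p53-inducible subunit of ribonucleotide reductase, had the highest change of the arm, with 44.5, 67.2 and 53.2 TPM in α-/-;βin libraries and 33.7, 53.5 and 35.8 TPM in control libraries. Replicate 2 was the highest of each group and the groups overlapped (log2 change 0.43, SE 0.21, 95% interval -0.08 to 0.93, limma adjusted p = 0.520).

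POLH, the translesion polymerase eta, had the lowest log2 change of the arm, with 9.38, 10.6 and 10.7 TPM in α-/-;βin libraries and 9.72, 11.1 and 11.2 TPM in control libraries. These values lay over each other (log2 change -0.05, 95% interval -0.33 to 0.22, limma adjusted p = 0.925). XPC, a further damage sensor of nucleotide excision repair, had a log2 change of 0.12. Exons of XPC overlap LSM3, which is on the other strand and averaged 256 TPM, and strandedness is not given, so reads of XPC cannot be told apart from it there. Exons of FAS, TNFRSF10B, POLH, TP53I3, TP53I11 and MDM2 also overlap expressed genes on the other strand. For TP53I11 that gene, TSPAN18, averaged 2.39 TPM, close to TP53I11 itself at 3.62 TPM in α-/-;βin cells and 2.34 TPM in controls.

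Of the 3 feedback genes none passed with limma, and none had an unadjusted p under 0.05. MDM2, the ubiquitin ligase that degrades p53, measured 34.2, 56.8 and 37.9 TPM in α-/-;βin libraries, against 28.3, 37.7 and 31.8 TPM in control libraries. MDM2 was highest in replicate 2 of each group, and 1 control library reached into the α-/-;βin range (log2 change 0.36, SE 0.20, 95% interval -0.12 to 0.84, limma adjusted p = 0.579). MDM4, its relative that masks the p53 activation domain, measured 3.45, 6.69 and 4.21 TPM in α-/-;βin libraries and 3.33, 6.01 and 5.27 TPM in control libraries. Its log2 change was -0.03 (95% interval -0.67 to 0.61, limma adjusted p = 0.985), and 0.04 with quantile normalization. PPM1D (WIP1), the phosphatase that removes activating phosphates from p53 and its kinases, measured 6.99, 6.80 and 7.41 TPM in α-/-;βin libraries and 7.50, 4.65 and 5.02 TPM in controls. Control replicate 1 was the highest of all 6 libraries, and the log2 change was 0.29.

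The p53 binding element was looked for in the promoters of the members. RefSeq promoter sequences of GRCh38.p14, from 250 bases before to 50 bases after a gene's start, were listed for 27 of the 32 members and not for PHLDA3, RRM2B, TNFRSF10B, TNFRSF10C and TP53INP1. The exact p53 decamer consensus, the 10-base unit of the element, which reads the same on both strands, was found in 6 of 44 member promoters (13.6%) and in 6.63% of all 35116 promoters. By gene this was 6 of 27 members (22.2%) and 8.06% of all genes.

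The stretches around these matches are shown to let the element be compared between FDXR, which was called, and members that were not. Capitals mark each exact match. The windows lie on GRCh38.p14 at chr17:74872971-74873030 for FDXR (minus strand), chr6:109009003-109009062 for SESN1 (minus strand), chr11:47214954-47215003 for DDB2 (plus strand), chr10:88991284-88991343 for FAS (plus strand), chr15:88621281-88621340 for AEN (plus strand) and chr5:58460184-58460243 for PLK2 (minus strand).
FDXR: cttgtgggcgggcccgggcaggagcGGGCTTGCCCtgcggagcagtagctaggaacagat
SESN1: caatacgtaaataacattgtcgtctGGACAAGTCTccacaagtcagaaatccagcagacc
DDB2: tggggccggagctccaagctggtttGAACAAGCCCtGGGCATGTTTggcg
FAS: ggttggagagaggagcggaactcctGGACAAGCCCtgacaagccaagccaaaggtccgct
AEN: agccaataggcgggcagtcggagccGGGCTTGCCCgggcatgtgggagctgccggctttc
PLK2: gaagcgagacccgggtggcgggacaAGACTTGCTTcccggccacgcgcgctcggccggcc

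DDB2 held a pair of exact decamers 1 base apart, and the other 5 windows held 1 each. FDXR and AEN carry the same 10 letters. The match began 11 bases before the start in FDXR, 49 in SESN1, 122 in FAS, 34 in AEN and 132 in PLK2, and 6 bases after it in DDB2. Log2 changes of the 6 genes with a match had a median of 0.33 (-0.02 to 0.78), against 0.26 (-0.35 to 1.73) for the 21 genes whose listed promoters had none. BTG2 and CLCA2, the other 2 called genes, were among those 21, which says only that these letters are not in that window.

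The genes that control p53 gave no call, and TP63 came closest. Of 28 listed p53 family members and regulators, 26 were tested and 0 were called by limma. At an unadjusted p under 0.05, 1 was higher (3.85%, against 3.72% of all genes) and 0 lower. The median log2 change of the 26 was -0.01, with -0.05 to 0.07 when 1 library was left out.

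TP63, the p53 relative of basal epithelium, which binds similar DNA elements, measured 29.6, 26.0 and 25.1 TPM in α-/-;βin libraries and 18.9, 13.1 and 16.2 TPM in controls. The groups did not overlap, and the log2 change of 0.72 (SE 0.15, 95% interval 0.37 to 1.07) missed the threshold at a limma adjusted p of 0.0664 (0.0127 to 0.240 over 18 alternatives, 2 of which passed). CLCA2 is also a known target of p63, and the part of TP63 in the higher CLCA2 was not tested. TP73, a further relative, stayed under 0.23 TPM in all libraries. CDKN2A, whose product ARF inhibits MDM2 and whose locus is deleted in MCF10A cells, was listed at 0 in all α-/-;βin libraries and at 0.842, 0 and 0.651 TPM in controls. ING2, a nuclear reader of PI-5-P and chromatin that acts on p53, measured 15.97, 11.1 and 12.4 TPM in α-/-;βin libraries and 13.7, 12.1 and 15.1 TPM in controls, with overlapping groups. NPM1, the most abundant regulator, which binds ARF in the nucleolus, measured 5164 ± 845 TPM in α-/-;βin cells and 4583 ± 676 TPM in controls (SD, n = 3 each).

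CDKN1A, which encodes p21 and is the best known p53 target of cell cycle arrest, measured 117, 120 and 139 TPM in α-/-;βin libraries and 105, 119 and 136 TPM in control libraries. The groups overlapped almost fully (log2 change 0.07, SE 0.12, 95% interval -0.22 to 0.35, limma adjusted p = 0.913). CDKN1A is 1 of 60 further p53 targets listed, of which 56 were tested and 0 called by limma. At an unadjusted p under 0.05, 7 of these 56 were higher and 5 lower, against 450 and 988 of all 12096 genes. Their median log2 change was 0.12 with 40 of 56 above 0, between that of the 32 members and that of all genes, and 0.06 without control replicate 1. The most abundant was SFN, 14-3-3σ, which holds cells in G2, at 858, 807 and 652 TPM in α-/-;βin libraries against 566, 594 and 537 TPM in controls. SFN was apart between groups, with a log2 change of 0.44 (SE 0.12, limma adjusted p = 0.172).

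Genes that p53 lowers through p21 and the DREAM repressor, a set of mitotic and replication genes, gave no call. All 30 were tested and 0 were called by limma. At an unadjusted p under 0.05, 0 were higher and 1 lower, against 450 and 988 of all 12096 genes. The 1 lower was the replication helicase subunit MCM5, which was named after its values were seen. The median log2 change of the 30 was -0.02, and between -0.27 (without control replicate 1) and 0.18 (without control replicate 2) when 1 library was left out. RRM2, the most abundant, measured 278 ± 24.4 TPM in α-/-;βin cells and 304 ± 40.3 TPM in controls (SD, n = 3 each). The mean level of this list varied more between replicate numbers than between groups, at -0.34, 0.22 and 0.04 in α-/-;βin replicates 1 to 3 and -0.43, 0.39 and 0.05 in control replicates 1 to 3, on the log2 scale relative to the control mean. The mean level of the 32 members was 0.28, 0.45 and 0.34 in α-/-;βin replicates 1 to 3, against -0.06, 0.09 and -0.04 in controls. In each group replicate 2 was thus the highest for the mean of the members as well as for the repressed genes. The apoptosis arm, 12 of the 32 members, differed in α-/-;βin cells only, at 0.25, 0.17 and 0.30 in replicates 1 to 3. In control replicates 1 to 3 this arm was at -0.08, 0.04 and 0.03, with replicate 2 again the highest. Without replicate 2 of both groups the median log2 change of the members was 0.24. The part of the replicate order in the members' values was not tested otherwise.

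**Figure D4:**
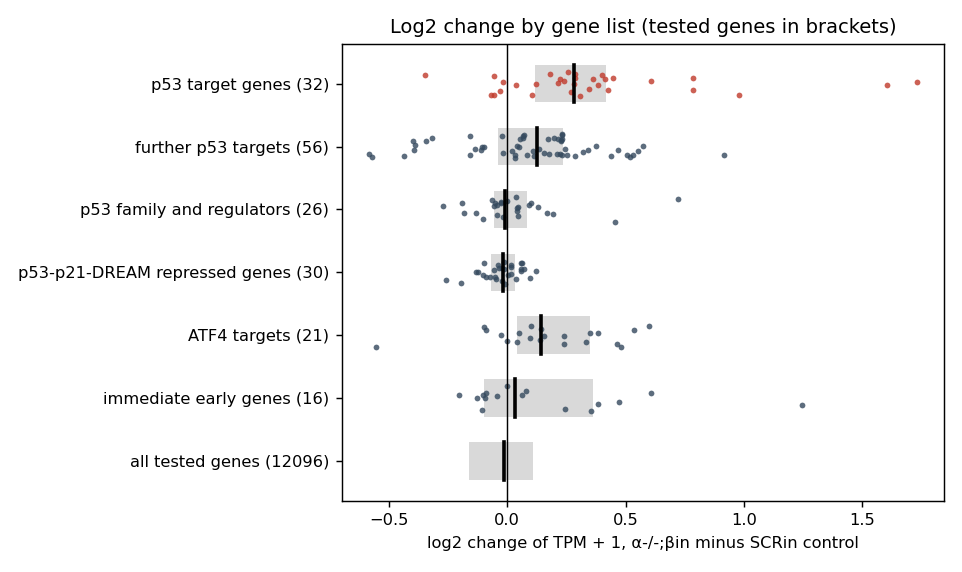
Log2 change (α-/-;βin minus SCRin control) of the tested genes of each list. Points are genes, grey bars span the quartiles and black lines mark the medians, which are 0.28 for the 32 p53 target genes, 0.12 for the 56 further targets, -0.02 for the DREAM-repressed genes and -0.01 for all 12096 tested genes.

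**Figure D5:**
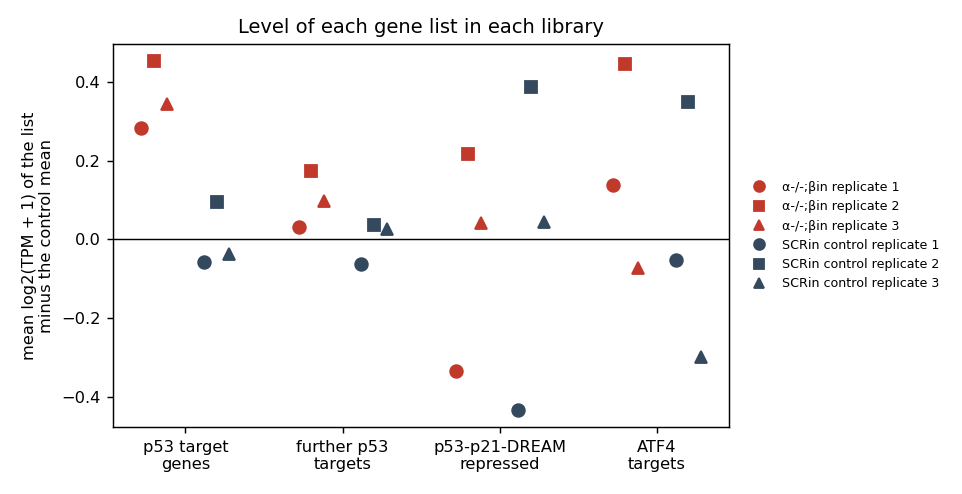
Mean log2(TPM + 1) of 4 gene lists in each library, relative to the control mean of each gene, with α-/-;βin libraries (red) left of SCRin control libraries (dark). The members are at 0.28 to 0.45 in α-/-;βin libraries and -0.06 to 0.09 in controls, while the repressed genes and the ATF4 targets differ more between replicate numbers.

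Some members answer to other pathways as well, and their genes were read from the same fit. Targets of ATF4, the transcription factor of the integrated stress response, which also drives GDF15 and SESN2, gave 0 calls by limma among 21 tested of 22 listed, and 0 had an unadjusted p under 0.05. Their median log2 change was 0.14, with 17 of 21 above 0 (81.0%). That share was close to the members' own (81.3%), and it was 46.7% for all genes. Removal of 1 library moved this median to between 0.016 (without control replicate 3) and 0.32 (without α-/-;βin replicate 3), and it was 0.31 without control replicate 2. SLC7A5, an amino acid transporter and the most abundant of them, measured 529, 723 and 512 TPM in α-/-;βin libraries and 285, 546 and 463 TPM in controls, with overlapping groups. ATF4 target levels were 0.14, 0.45 and -0.07 in α-/-;βin replicates 1 to 3 and -0.05, 0.35 and -0.30 in control replicates 1 to 3. GDF15 followed the same order of replicates in each group, and the part of the ATF4 response in its values was not tested.

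Among immediate early genes, the class to which BTG2 also belongs, 16 of 20 were tested, 1 was higher and 0 lower by limma. MYC measured 109, 118 and 110 TPM in α-/-;βin libraries, against 71.7, 76.3 and 72.1 TPM in control libraries (log2 change 0.61, SE 0.08, limma adjusted p = 0.0110, and 0.00267 to 0.0799 over 18 alternatives, 15 of which passed). The groups of MYC lay far apart, but MYC did not pass without α-/-;βin replicate 3 (adjusted p = 0.0631), control replicate 3 (adjusted p = 0.0675) or replicate 2 of both groups. At an unadjusted p under 0.05, 3 of the 16 were higher (18.8%, against 3.72% of all genes) and 0 lower. The same 3, MYC, FOS and ZFP36, were apart between groups. FOS, a subunit of the AP-1 transcription factor named after its values were seen, had the highest log2 change of the list. It measured 24.0, 18.2 and 24.4 TPM in α-/-;βin libraries, against 7.11, 14.3 and 6.37 TPM in control libraries (log2 change 1.25, SE 0.28, limma adjusted p = 0.0970). Every α-/-;βin library was above every control. ZFP36, which promotes decay of unstable mRNAs and was likewise named after its values were seen, had a log2 change of 0.39 (SE 0.09, limma adjusted p = 0.106). The median of the list was 0.03 with 8 of 16 genes above 0 and an upper quartile of 0.36, against 0.11 for all genes. Without α-/-;βin replicate 2 the median was 0.20, without α-/-;βin replicate 1 it was -0.02, and without replicate 2 of both groups 0.16.

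The changes of the members were set beside those of their neighbours on the chromosome, because neighbouring genes can move together. Of the 221 genes called lower in α-/-;βin cells over the whole table, 57 lay outside 2 stretches on chromosomes 7 and 3. The 32 members lie on 15 chromosomes and none of them in those stretches. For the 20 nearest tested genes of each member, 10 on each side, the median log2 change was between -0.16 (around BTG2) and 0.14 (around TP53INP1), and 28 of 32 members were above it. These medians centred on -0.01, as did all genes, so this count says little beyond the 26 of 32 members above 0. CLCA2, FDXR, SESN1, EDA2R, RRM2B and BBC3, like BTG2, were higher than all 20 of their neighbours. Their changes were above the upper quartile of all genes (0.11), so most genes anywhere lay below them. At the other end, TP53I3 and TP53INP1 were above 2 of theirs and TIGAR above 4.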

How the data were processed

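The authors deposited 1 table of TPM values for 27914 genes with 1 column per sample, each column summing to 1000000. Per the submitters' processing notes the genome build was hg19. The aligner, quantification program, annotation, strandedness and filters were not given in the sources used here. Columns headed Control were matched to control samples by replicate number, and the columns headed as the experiment were assigned to α-/-;βin as the remaining group. TPM keeps no depth, so its precision is known only from the replicates.

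Of these genes, 12096 (43.3%) averaged 1 TPM or more over the 6 samples and were compared on log2(TPM + 1) with limma 3.58.1 in R 4.3.3 (empirical Bayes with a mean-variance trend, two-sided, Benjamini-Hochberg adjustment over all genes tested, threshold 0.05), and the fit was tested on simulated data. The 32 members, the 5 arms, the 5 other lists and the markers were chosen with earlier results of these data known. Genes described in full were those past the threshold, those with groups apart and a log2 change of at least 0.5, and the ends of each arm, and of another list its calls or else its most abundant gene, plus always TP63, TP73, CDKN2A, CDKN1A, ING2 and the PIP4K2 genes. Gene order came from RefSeq GRCh38.p14, used for chromosomes and neighbours (26050 symbols matched directly and 936 by synonym). Exon overlaps came from GENCODE v29. The chromosome 7 and 3 stretches ran from FAM20C to CHCHD2 and from SEMA3F to RPP14, also with earlier results known. Alternatives covered pseudocount, filter, scaling, variance model, genes tested, replicate block and removal of each library. The values of 1 gene of the regulator list are not reported here.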

Additional observations from a re-analysis of the deposited data

How the results depend on the processing

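Over all genes 265 passed the threshold, 45 without the chromosome 7 and 3 stretch genes and 52 to 219 when libraries were left out (106 without control replicate 3, 119 without α-/-;βin replicate 3, 163 without α-/-;βin replicate 1). Of the members 3 passed, 0 with no filter on low values (17474 genes tested), 0 without the stretch genes and 0 to 1 when libraries were left out. The removal of replicate 2 from both groups, chosen after seeing the data, gave 52 calls in all and 0 members. Fewer samples or other genes tested are part of these settings, and what else moved the counts was not tested. The median of the members was 0.22 to 0.31 and that of the apoptosis arm 0.22 to 0.35 without a library. With the replicate number as a block, 881 genes (7.28%) and 9 members passed, CLCA2, BTG2 and FDXR with FAS, TNFRSF10B, PHLDA3, SESN1, GDF15 and RRM2B. The labels only number the replicates. Deviations from the group means correlated at 0.25, 0.27 and -0.02 for numbers 1, 2 and 3. Between unlike numbers they correlated at -0.24 and -0.29 for 1 with 2, and at -0.04 to 0.05 with number 3. What equal numbers share is not given, so the main fit had no block. Any effect shared by a number thus stayed in its spread. The sign of 5 members near 0 turned under some settings and that of 27 did not: PLK2 (0.014 with quantile normalization, 0.0022 with median-of-ratios scaling), TP53INP1 (0.049 with quantile normalization) and MDM4 (0.040 with quantile normalization), and by removal of a library PLK2 (-0.21 to 0.19), TNFRSF10C (-0.15 to 0.35), TP53INP1 (-0.16 to 0.089), POLH (-0.11 to 0.001), MDM4 (-0.26 to 0.14), and outside the members CDKN1A (-0.026 to 0.16) and ING2 (-0.19 to 0.052). Depth is unknown, which limits genes of low TPM such as BBC3 and TNFRSF10C most.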
